A study of Homo sapiens with 4 samples.

Results

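Binding of the nuclear receptor PPARG was examined around 9 genes that mark or control the epithelial and the mesenchymal state of a cell: CDH1, EPCAM, ESRP1, GRHL2, CLDN1, KRT8, KRT18, VIM and ZEB1. A peak was taken when its midpoint lay within 100 kb of a gene's span on genome build hg19, with KRT8 and KRT18 treated as 1 locus, which gave 8 loci. Of 3644 peaks in both lists, 12 were found in this way, 4 of the 1419 peaks of NCI-H1993 and 8 of the 2225 peaks of NCI-H2347. All 12 lay at 4 epithelial loci, CDH1, EPCAM, GRHL2 and the keratin pair. No peak lay within 100 kb of ESRP1, CLDN1, VIM or ZEB1 in either list (0 of 1419 and 0 of 2225 peaks). At the density of the whole lists, the windows of VIM and ZEB1 together would hold only 0.305 (NCI-H1993) and 0.481 (NCI-H2347) peaks.

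NCI-H1993 and NCI-H2347 are human lung adenocarcinoma cell lines. Each carried PPARG-LAP, a tagged PPARG gene on a bacterial artificial chromosome (BAC), and the EGFP tag was precipitated with a goat antibody from formaldehyde-fixed chromatin and sequenced (ChIP-seq). Each line contributed 1 ChIP library and 1 library of unprecipitated chromatin (input); only the ChIP peak lists were analysed. The labels give the treatment as not applicable, but the names of both peak lists carry the abbreviation PIO, which the labels do not explain, so whether a ligand was present is not settled. The peaks report the tagged protein, expressed from an added gene copy. The labels do not say whether a line was 1 clone, and no line without the tag is among the 4 samples. With 1 library per line there was no replicate and no test between the lines. Read depth is unknown from peak lists, so a locus without a peak is one where nothing passed the authors' threshold, not one shown to be unbound.

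PPARG binds DNA as a heterodimer with a retinoid X receptor, classically at a direct repeat of the hexamer AGGTCA with a single base between the copies (DR1). It is best known as the master regulator of fat cell differentiation, and in epithelia it is associated with differentiation. The epithelial state is held by adhesion proteins, tight junctions and keratin filaments, and by the factors that keep their genes active. The mesenchymal state replaces keratins with vimentin and silences CDH1 through repressors such as ZEB1.

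The 8 loci with their flanks covered 2.26 Mb. NCI-H1993 had 1.77 peaks per Mb there (95% exact Poisson interval 0.482 to 4.53) and NCI-H2347 had 3.54 (1.53 to 6.98). Over 2870 Mb, the bases between the first and the last peak on every chromosome, the densities were 0.492 and 0.775 per Mb. The wider figure includes stretches poor in genes, and the genes were chosen with results of these data known. The intervals cover counting error only and treat peaks as independent, though some NCI-H2347 members are close neighbours. The densities are therefore a description and not an enrichment. The 6 epithelial loci (1638 kb) held all 4 and all 8 peaks, where the density of the whole list would give 0.805 and 1.27. The VIM and ZEB1 loci (621 kb) held 0 peaks in each list, where that density would give 0.305 and 0.481. A count of 0 over so short a stretch cannot be told apart from the average of the list.

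**Figure D1:**
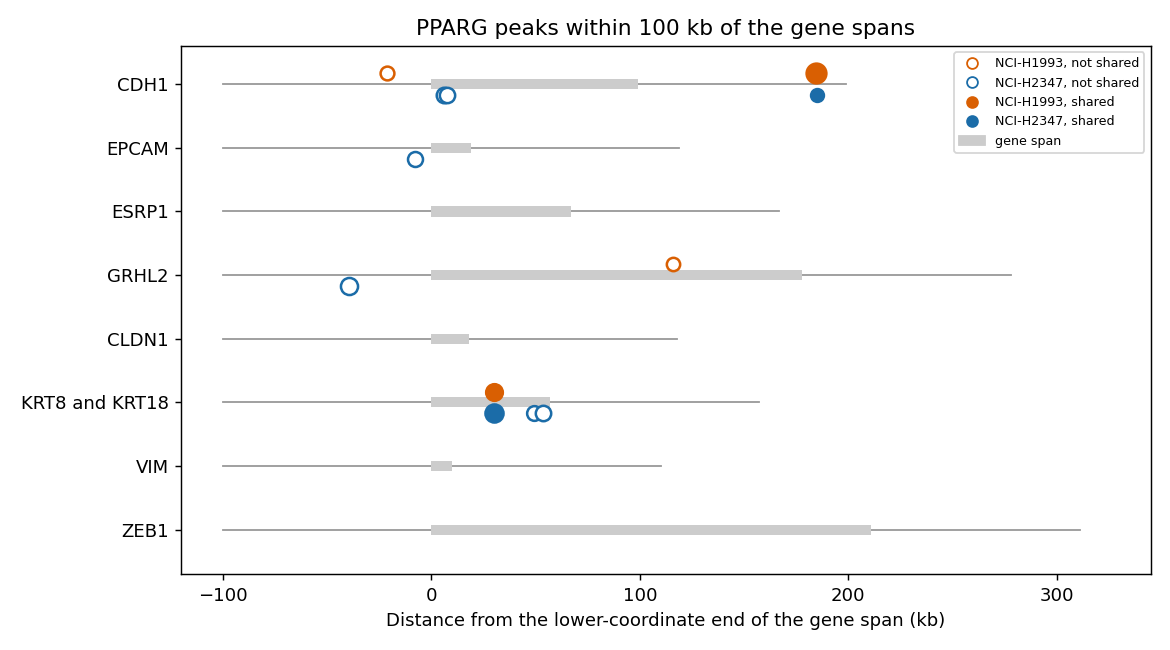
Position of each of the 12 peaks, in kb from the lower-coordinate end of the gene span, for the 8 loci. Grey bars are gene spans, thin lines the 100 kb flanks, and circle area grows with the authors' score. Filled circles overlap a peak of the other list. Peaks of both lines coincide above CDH1 and within the keratin pair, and the rows of ESRP1, CLDN1, VIM and ZEB1 are empty.

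CDH1 encodes E-cadherin, the adhesion protein of epithelial cell contacts, and lies on chromosome 16 at 68771 to 68870 kb, transcribed toward higher coordinates. It had 2 peaks in NCI-H1993 and 3 in NCI-H2347, the most of any locus in NCI-H1993 and as many as the keratin pair in NCI-H2347. Positions relative to a gene are accurate to about 1 kb, because the spans are given in whole kb. In NCI-H2347, 2 peaks lay inside the gene near its 5′ end. One, at 68776627 to 68777173, scored 79.9, and the other, at 68778430 to 68779073, scored 77.3. Their midpoints were 5.90 and 7.75 kb from the start of the span. The score is the authors' own value for a peak and ranks peaks within a list. Both scores were near the middle of that list, above 52.5% and 50.2% of its peaks. These neighbours were 1.85 kb apart, and neither had an overlapping peak in NCI-H1993.

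The NCI-H1993 peak nearest to the 5′ end of CDH1 was at another place. It spanned 68749364 to 68749837, 21.4 kb upstream of the gene, with a score of 60.4 and a width of 474 bp, the narrowest of the 12. Its midpoint was 27.3 kb and 29.2 kb from the midpoints of the intragenic NCI-H2347 peaks. The next protein-coding gene on that side is CDH3, another classical cadherin, in the RefSeq annotation of GRCh38.p14, which was used for gene order only. At the 5′ part of CDH1 the lists thus gave different positions, an upstream one in NCI-H1993 and an intragenic pair in NCI-H2347.

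Downstream of CDH1, the lists shared a site. The NCI-H1993 peak spanned 68955287 to 68956128 and the NCI-H2347 peak 68955604 to 68956232, with an overlap of 525 bp and midpoints 211 bp apart. The site lay 85.7 kb (NCI-H1993) and 85.9 kb (NCI-H2347) beyond the 3′ end, on the side of TANGO6, the next protein-coding gene. Among the 4 NCI-H1993 members its score was the highest, 137, above 88.4% of that list. Its score in NCI-H2347 was the lowest of the 8, 50.5, above 1.89% of a list whose lowest score was 50.1. Scores of the lists cannot be compared directly, because read depth is unknown. The site is called in NCI-H2347 only just. With the NCI-H2347 list cut to its best 1419 peaks, all with a score of at least 65.8, this peak was gone. The peaks of this site were also the members farthest from the gene span of their own locus. Distances were measured to the spans of the examined genes only. Whether the site lies inside TANGO6 was therefore not determined. The nearest peaks outside the 100 kb limit were at 135 kb from GRHL2 in NCI-H1993 (102816957 to 102817528, score 52.2) and at 160 kb from EPCAM in NCI-H2347 (47435850 to 47436493, score 65.4).

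EPCAM encodes an epithelial cell adhesion molecule widely used to mark carcinoma cells, and lies on chromosome 2 at 47596 to 47615 kb, transcribed toward higher coordinates. NCI-H2347 had 1 peak there, at 47588021 to 47588783, 7.60 kb upstream of the gene. Its score of 73.4 was above 46.4% of its list and its width was 763 bp. In NCI-H1993 the nearest peak was 960 kb away, at 46635742 to 46636699 with a score of 70.4. EPCAM was the 1 locus of 8 with a peak in a single list. Whether it differed between the lines beyond the calling threshold was not tested.

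KRT8 and KRT18 encode the partner keratins of simple epithelia, which pair to form the filament network of glandular cells. Their joint span on chromosome 12 runs from 53290 to 53347 kb, and KRT18 is the next protein-coding gene above KRT8. All peaks of the locus lay inside that span, 1 in NCI-H1993 and 3 in NCI-H2347. Of the 2 shared sites, the one here had the closer midpoints. The NCI-H1993 peak, at 53319569 to 53320575, scored 93.8, and the NCI-H2347 peak, at 53319575 to 53320448, scored 113. The NCI-H2347 peak lay wholly within the other (overlap of 874 bp, midpoints 60.5 bp apart). It ranked alike within its lists, above 72.9% of the NCI-H1993 peaks and 73.4% of the NCI-H2347 peaks, and was the best-scoring of the 8 NCI-H2347 members. Its midpoint was 30.1 kb (NCI-H1993) and 30.0 kb (NCI-H2347) above the lower end of the span.

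The other keratin peaks were found in NCI-H2347 only. They spanned 53339032 to 53339846 with a score of 70.7 and 53343214 to 53344235 with a score of 78.3. They lay 7.56 kb and 3.28 kb below the upper end of the span, the end on the side of KRT18. Whether either peak lay inside KRT18 was not determined, because the span is given for both keratin genes together. Their midpoints were 4.29 kb apart, and 19.4 and 23.7 kb from the NCI-H1993 peak of the shared site. The locus adjoins a stretch of chromosome 12 rich in peaks, most of them of NCI-H2347. Both lines were above the density of their whole list there, 0.492 per Mb in NCI-H1993 and 0.775 in NCI-H2347. Between 52000001 and 53000000, NCI-H2347 had 10 peaks and NCI-H1993 had 2, none of them a member (0 in each). Between 53000001 and 54000000 there were 5 and 3, of which 3 and 1 were the keratin peaks.

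Of the 7 member genes looked up in the RefSeq promoter table (all but ESRP1 and GRHL2), 4 had a window, and that of KRT8 is shown because the shared site lies within the keratin span. The window runs from 250 bases before to 50 after a transcript start, on GRCh38.p14, chr12:52926420-52926719, minus strand. It was not placed on hg19, so whether a peak covers it was not tested. Capitals mark the 4 stretches closest to the DR1.
KRT8 promoter window: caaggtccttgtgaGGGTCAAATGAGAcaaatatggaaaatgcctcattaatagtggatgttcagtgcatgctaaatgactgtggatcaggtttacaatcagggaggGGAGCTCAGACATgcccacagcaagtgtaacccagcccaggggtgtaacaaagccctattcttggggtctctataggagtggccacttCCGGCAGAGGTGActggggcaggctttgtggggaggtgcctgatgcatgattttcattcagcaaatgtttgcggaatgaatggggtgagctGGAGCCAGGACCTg
An exact hexamer, AGGTCA on either strand, was not in this window (0 matches), and is in 13.8% of the 35116 windows of the table. An exact DR1 was in 0.0228% of them. The capital stretches match the DR1 at 8 of its 12 fixed letters, and 75.0% of all windows hold a match at least as close, so these letters do not set the window apart. The same table has windows for CLDN1, VIM and ZEB1, 10 windows with that of KRT8. Of these, 7 are of ZEB1, and CLDN1, KRT8 and VIM have 1 each, so the counts below describe mostly ZEB1. None of the 10 held the hexamer or the DR1 (0 windows each). The E-box CACCTG, on either strand, the sequence bound by ZEB and SNAI repressors, was in 2 of the 10, both of ZEB1, and in 20.6% of all windows.

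GRHL2 is a grainyhead-like transcription factor that maintains epithelial gene expression, CDH1 included, and opposes ZEB1. It lies on chromosome 8 at 102504 to 102682 kb and is transcribed toward higher coordinates. Each list had 1 peak at the locus, and they did not coincide. The NCI-H1993 peak was inside the gene, 116 kb from its start, at 102619579 to 102620591, with a score of 55.7, the lowest of the 4 members and above 21.1% of the list. In NCI-H2347 the peak was 39.7 kb upstream, at 102463709 to 102464919, with a score of 99.5, above 66.7% of the list. At 1211 bp it was the widest of the 12. The midpoints were 156 kb apart, so GRHL2 had a peak in both lines without a shared site.

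ESRP1, CLDN1, VIM and ZEB1 had their nearest peaks far away. ESRP1, on chromosome 8 at 95653 to 95720 kb, is a splicing regulator that keeps epithelial isoforms. Its nearest peak was 3456 kb away in NCI-H1993, at 99175751 to 99176430, and 767 kb away in NCI-H2347, at 94886052 to 94886745. CLDN1, on chromosome 3 at 190023 to 190041 kb, encodes claudin-1 of tight junctions. Its nearest peaks were 240 kb away in NCI-H1993 (190280731 to 190281693) and 367 kb away in NCI-H2347 (189654922 to 189656178). Peaks were thus present at 4 of the 6 epithelial loci and absent from the windows of the other two.

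VIM, on chromosome 10 at 17270 to 17280 kb, encodes vimentin, the intermediate filament of mesenchymal cells. The nearest peak was 418 kb away in NCI-H1993, at 17697392 to 17698153, and 1619 kb away in NCI-H2347, at 18899139 to 18899816. ZEB1, on the same chromosome at 31608 to 31819 kb, encodes the zinc finger repressor of CDH1. The nearest peak was 828 kb away in NCI-H1993, at 30779854 to 30780537, and 1318 kb away in NCI-H2347, at 30289623 to 30290542. For both genes the NCI-H1993 peak was the nearer one, although that list is the shorter. The same held for the epithelial gene CLDN1, and the reverse for ESRP1. At these distances no peak can be assigned to either gene.

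**Figure D2:**
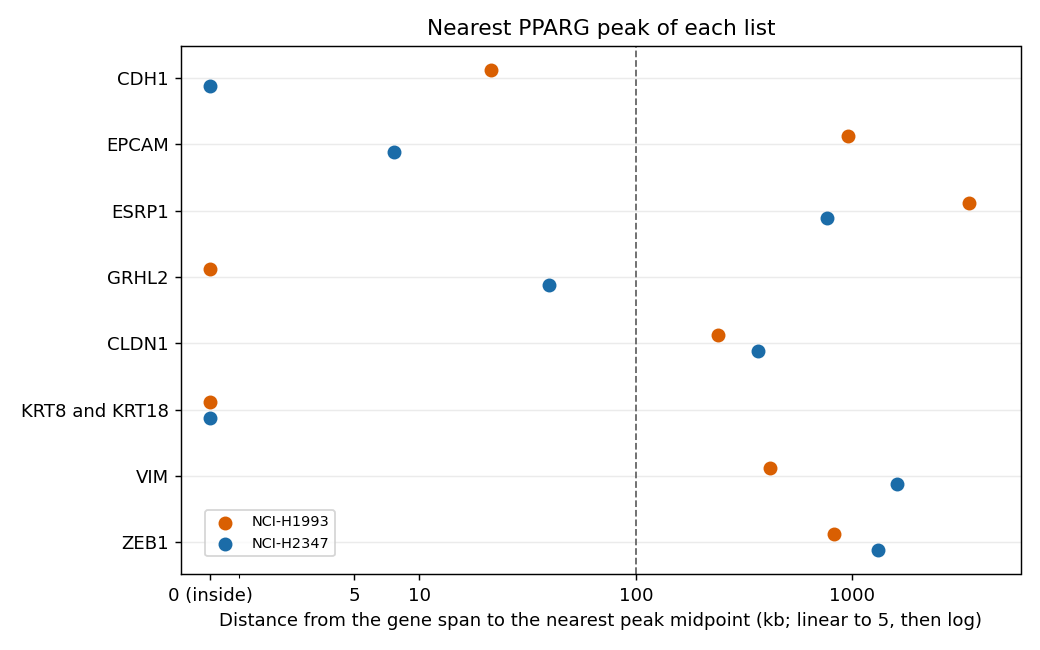
Distance in kb from each gene span to the nearest peak midpoint of each list (axis linear to 5 kb, then logarithmic), with the 100 kb limit dashed. A point at 0 has the peak inside the gene. The points of ESRP1, CLDN1, VIM and ZEB1 lie between 240 and 3456 kb, and in NCI-H1993 that of EPCAM lies at 960 kb.

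The lists were then compared over the members. In NCI-H1993, 2 of 4 members overlapped an NCI-H2347 peak (50.0%, 95% Clopper-Pearson interval 6.76% to 93.2%), where 34.2% of the whole list did. In NCI-H2347 it was 2 of 8 (25.0%, 3.19% to 65.1%), where 21.7% of the list did. Both intervals treat members as independent, though the 8 of NCI-H2347 come from 4 loci. Sharing at these loci could not be told apart from that of the lists at such numbers. Of the unshared members, 1 of 2 in NCI-H1993 and 4 of 6 in NCI-H2347 had a peak of the other list within 50 kb, against 18.8% and 15.1% of all unshared peaks. The 5 are at CDH1 and the keratins, so they come from 2 loci and are not independent. Of the 8 NCI-H2347 members, 4 had another peak of their own list within 10 kb, the pairs in CDH1 and near KRT18, against 14.1% of the list. Each pair counts both of its peaks, so these 4 are not independent either. In NCI-H1993, 0 of 4 members had such a neighbour, against 7.75% of the list.

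Most NCI-H2347 members were of middling strength, while the 4 of NCI-H1993 lay on both sides of the middle, above 21.1%, 33.0%, 72.9% and 88.4% of their list. The NCI-H1993 members scored 55.7 to 137, with a median of 77.1 against 69.8 for the list. The NCI-H2347 members scored 50.5 to 113, with a median of 77.8 against 77.1. In NCI-H1993, 1 of 4 members scored 100 or more, the peak downstream of CDH1, where 23.8% of the list did so. In NCI-H2347 it was 1 of 8, the shared keratin peak, where 33.0% of the list did. The highest scores of the lists were 716 and 1002, and the best-placed members ranked 165 of 1419 (downstream of CDH1, NCI-H1993) and 591 of 2225 (keratin pair, NCI-H2347). Median widths were 925 bp in NCI-H1993 and 789 bp in NCI-H2347, against 731 and 832 bp for the lists.

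**Figure D3:**
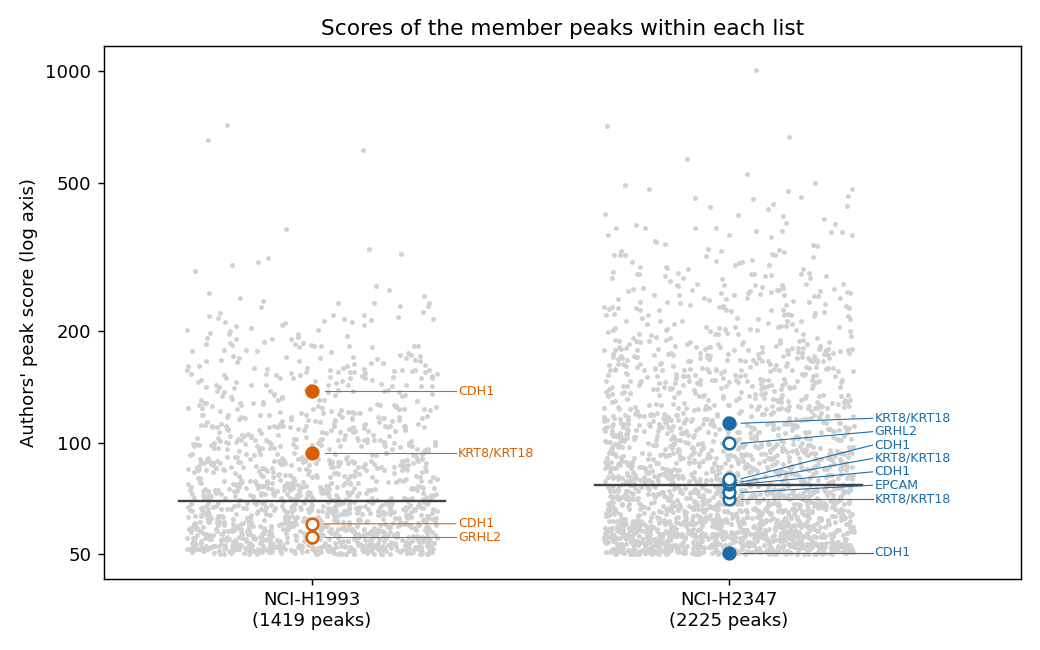
Authors' peak score (log axis) of all peaks of each list in grey, with the list's median as a line and the members as circles labelled by locus, filled where shared. The horizontal spread of the grey points is random. In NCI-H1993 the shared CDH1 and keratin peaks, at 137 and 93.8, lie above the unshared ones. In NCI-H2347 the shared CDH1 peak lies at the bottom of the list at 50.5.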

How the data were processed

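PPARG ChIP-seq peak lists of 2 lung adenocarcinoma lines were used, 1 library per line. Each list has 5 columns (chromosome, start, end, name and score). Per the submitters' processing notes, MACS 1.4.2 and build hg19 were used. The aligner, read filters, threshold and use of the input are not given in the sources used here. Peak scores were used as deposited by the authors, to rank peaks inside a list, and peaks were called on single libraries. Depth is unknown.

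Starts were converted to 1-based positions. Peaks within 100 kb of the gene spans (by midpoint) were taken, and peaks of the lists were called shared on an overlap of at least 1 bp. The genes, lists and settings were chosen with earlier results of these data known. As there were 12 member peaks, all are named, with the nearest peak of each list at loci without one. The closest match to the DR1 was added after the exact matches had been counted. Other genes of the epithelial and mesenchymal programmes were not analysed here, since no gene positions on hg19 beyond these spans were used. Sequence comes from RefSeq's GRCh38.p14 table, which had windows for 4 of the 7 genes looked up (CLDN1, KRT8, VIM and ZEB1). The code was tested on simulated peaks. Alternatives were windows of 50 and 200 kb, any base in the window, a score of at least 100, the longer list cut to 1419 peaks, 50% reciprocal overlap, midpoints within 250 bp and a gap of up to 500 bp. The tools were pandas 2.3.3, numpy 2.4.6, matplotlib 3.10.9 and scipy 1.17.1 under Python 3.11.15.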

Additional observations from a re-analysis of the deposited data

How the results depend on the processing

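With windows of 50 and 200 kb the number of member peaks was 3 and 5 in NCI-H1993 and 7 and 9 in NCI-H2347, and the loci with a peak stayed at 3 and 4. Counting any base of a peak in the window changed no count. The peaks called shared were 2 in each list under 50% reciprocal overlap, midpoints within 250 bp and a gap of up to 500 bp. With a window of 50 kb, which leaves out the site downstream of CDH1, 1 peak was shared in each list. The number was also 1 in each list with the longer list cut to 1419 peaks, which removes that site's NCI-H2347 peak. When peaks scoring under 100 were left out of both lists, each list kept 1 member peak at 1 locus, with 0 shared. No paired analysis was possible because neither line had a second ChIP library. Sites below the threshold are not in the lists, so the depth behind the empty loci is unknown.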
